A study of Mus musculus with 87 samples.

Results

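The loci described here are the 487 autosomal ETn loci of intermediate read level that the capture libraries held in every animal and in both ES cell lines, out of 5018 loci in the series. The data are capture-seq libraries of mouse genomic DNA, enriched by hybridization to RNA probes that match the outer ends of the long terminal repeats (LTRs) of ETn elements, and each value is a number of uniquely mapped reads whose mate fell in an annotated ETn repeat. Levels are given in RPM, reads per 1000000 ETn-paired reads of a library. The members were chosen by read level alone. A locus joined all regions of 10 RPM or more lying within 1000 bp of each other, and it was a member if it had at least 10 RPM in all 76 main libraries (1 for each of 74 mice and 2 ES lines), at least 100 RPM in each of 16 B6 libraries, and a mean B6 level below 400 RPM. Fixed loci that averaged 400 RPM or more, of which there were 1243, are called strong fixed loci below, and 375 autosomal loci with at least 10 RPM but not 100 RPM in all B6 libraries are called weak loci.

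The 16 B6 libraries came from 4 Chr4-cl KO founders, 3 KO mice of generation F3, 5 KO mice of generation F4, 2 Chr4-cl WT mice and 2 Chr4-cl KO/WT ES cell lines, and they mixed tail, ear, blood, spleen and ES cell DNA. Chr4-cl and Chr2-cl are clusters of KRAB zinc finger protein genes on chromosomes 4 and 2, and KO mice lack the whole cluster. The Chr4-cl deletion was made in B6 ES cells, and clones carrying it on a single chromosome went into blastocysts of albino B6 mice. Crosses with 129X1/SvJ mice gave 13 B6/129 F1 libraries (4 KO, 4 second-generation KO, 2 KO/WT parents and 3 labelled WT) of tail, ear and blood DNA. They also gave 39 B6/129 F2 libraries (4 parents, matings 1 to 3 and further KO offspring) of tail and ear DNA. The F2 mice were KO, KO/WT or WT, and the F2 parents were KO/WT except parent replicate 2, a KO. The 8 Chr2-cl libraries (5 KO, 1 KO/WT, 2 WT), of ear and tail DNA, descend from R1 ES cells and carry a mixed background with 129 substrains. The study asked whether loss of the KRAB zinc finger genes lets ETn elements move, and fixed loci serve in it as the inherited background against which insertions are read. Ages are given only as juvenile or adult for tails.

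ETn elements are early transposons, mouse LTR retrotransposons that encode no proteins of their own and move with enzymes supplied by the related ETnERV (MusD) elements. A complete element has identical LTRs at both ends at the time it inserts, and recombination between them leaves a solitary LTR. KRAB zinc finger proteins bind such elements and recruit KAP1, which leads to H3K9 methylation and silencing in early embryos. An insertion that all descendants of an ancestor carry is fixed, and one that only some strains carry is polymorphic.

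The 87 libraries held between 525419 and 1046650 ETn-paired reads, and a member had a median of 140 to 325 reads in a main library. The shallowest library, the tail of B6 Chr4-cl KO founder replicate 1, stood apart: 152 members lay under 70% and 113 over 130% of their median over all main libraries, against at most 16 and 23 in any other main library. The WT library of mating 2 replicate 1, the next shallowest, had 16 members under 70%. The sex label went against the reads in 4 mice labelled male (3 mating 1 KO ears and mating 2 KO replicate 3), which had at most 0.00677% of reads on chromosome Y, where the other 33 males had at least 0.142%. The 3 F1 mice labelled WT are called heterozygous in the study's text, and the labels were kept here.

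The stretches below show what the probes had to hold on to, for 5 of the 6 loci at the edges of the level range and for 3 loci whose level differed between animals. Each is the part of the mm9 reference that best matched any of 899 different 120-base probes, read 5′ to 3′ along the LTR, and capitals mark bases that differ from that probe. A stretch with no capitals is identical to a probe, and the probe is printed above the stretches that are not.
capture probe, matched by both chromosome 14 loci: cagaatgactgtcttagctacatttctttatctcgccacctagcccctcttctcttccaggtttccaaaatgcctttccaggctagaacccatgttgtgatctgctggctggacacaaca
chr14:4951099-4951218, plus strand, LTR end: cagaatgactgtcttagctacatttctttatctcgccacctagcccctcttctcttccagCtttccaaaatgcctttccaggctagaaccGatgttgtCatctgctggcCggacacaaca
chr14:6101455-6101574, minus strand, LTR end: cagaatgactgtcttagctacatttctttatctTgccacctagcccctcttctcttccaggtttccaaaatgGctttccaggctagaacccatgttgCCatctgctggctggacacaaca
chr12:20384485-20384604, plus strand, LTR start: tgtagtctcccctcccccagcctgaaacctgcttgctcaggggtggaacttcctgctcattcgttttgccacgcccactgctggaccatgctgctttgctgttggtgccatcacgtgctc
capture probe, best match of the chromosome 4 locus of 399.7 RPM: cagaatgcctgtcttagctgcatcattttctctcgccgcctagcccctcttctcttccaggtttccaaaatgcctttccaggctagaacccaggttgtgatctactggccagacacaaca
chr4:55415259-55415378, minus strand, LTR end: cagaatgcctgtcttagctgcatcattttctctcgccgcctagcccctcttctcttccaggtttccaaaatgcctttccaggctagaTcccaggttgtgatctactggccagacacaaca
capture probe, best match of the chromosome 13 locus: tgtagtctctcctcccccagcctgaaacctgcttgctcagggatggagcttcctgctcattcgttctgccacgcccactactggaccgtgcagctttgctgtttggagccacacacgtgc
chr13:20217820-20217939, minus strand, LTR start: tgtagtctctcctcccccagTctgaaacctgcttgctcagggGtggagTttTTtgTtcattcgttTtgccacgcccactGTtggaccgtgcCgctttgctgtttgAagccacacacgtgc
chr17:87611798-87611917, minus strand, LTR start: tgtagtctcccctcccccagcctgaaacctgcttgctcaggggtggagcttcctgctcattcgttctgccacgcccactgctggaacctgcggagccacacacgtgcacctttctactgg
chr4:144441267-144441386, minus strand, LTR end: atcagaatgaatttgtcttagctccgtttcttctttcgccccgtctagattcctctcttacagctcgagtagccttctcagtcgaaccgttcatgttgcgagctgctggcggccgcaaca
chr11:7867870-7867989, plus strand, LTR start: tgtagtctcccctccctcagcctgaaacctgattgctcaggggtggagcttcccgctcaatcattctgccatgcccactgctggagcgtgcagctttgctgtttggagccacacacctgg

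The match to a probe did not order these loci by level. Both chromosome 14 loci matched 116 of 120 bases, the chromosome 12 locus matched all 120, and all 3 averaged about 120 RPM. At the upper edge the chromosome 18 locus, whose stretch is not shown, matched all 120 bases, the chromosome 4 locus of 399.7 RPM matched 119 and the chromosome 13 locus 109, and they averaged 399.9, 399.7 and 399.4 RPM. Over the 312 members with a single LTR, Spearman's rho between mean B6 RPM and probe bases matched was -0.03. The rule had narrowed their range of level, and over all 1467 single-LTR intermediate, strong and weak loci rho was 0.15. Both are descriptions across loci that share the same 16 libraries and probe set. The median match was 110 bases at single-LTR weak loci, 118 at members and 117 at strong fixed loci. Members in all matched a median of 120 probe bases, and 264 of 487 (54.2%) held a stretch identical to a probe, beside 521 of 1243 (41.9%) strong fixed loci. A designed probe site lay within 1000 bp of 222 members (45.6%) and of 400 strong fixed loci (32.2%).

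By the layout of their LTRs the members fell into groups of different level. A single LTR was found at 312 members, with a median of 334 RPM in B6. At 143 members the locus held 1 of the 2 LTRs of an element whose other LTR lay in reach but outside the locus, and the median was 268 RPM. A further 27 members held 2 or more LTRs (median 299 RPM), and 5 members had no LTR match (median 181 RPM). Among strong fixed loci the same layouts counted 950, 42 and 251, with medians of 487, 491 and 843 RPM. Layouts with 1 of 2 LTRs thus made up 29.4% of members and 3.38% of strong fixed loci. Since level chose the members, these shares are a description.

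**Figure D1:**
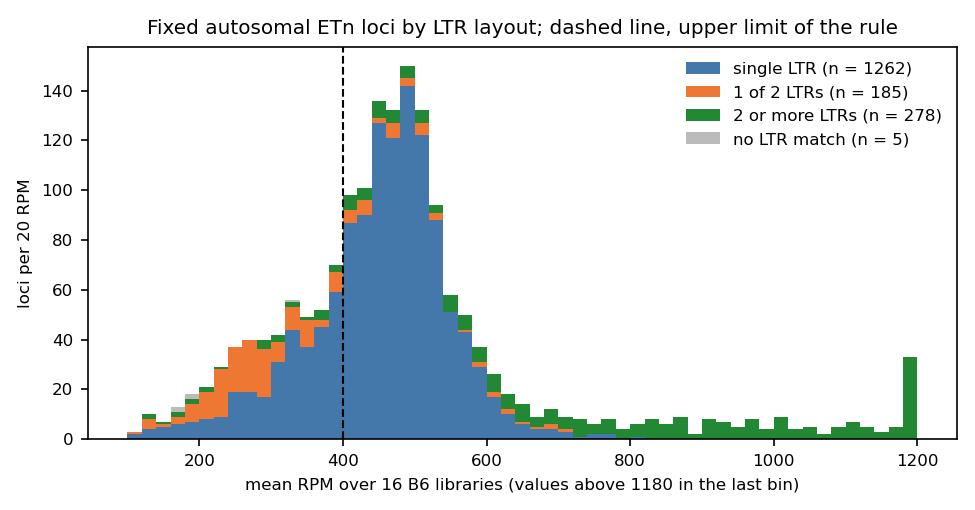
Number of fixed autosomal loci per 20 RPM of mean B6 level (x axis, RPM over 16 libraries), stacked by LTR layout; the dashed line at 400 RPM is the upper limit of the rule. Loci with 1 of 2 LTRs lie mostly left of the line (143 of 185), and loci with 2 or more LTRs mostly right of it (251 of 278).

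The 143 loci with 1 of 2 LTRs were mostly the ends of full elements that the 1000 bp joining distance had kept apart. In 110 of them the other LTR lay in another member, which gives 56 elements with both ends among the members (54 with 1 LTR in each locus, and 2 whose other end was a member with 2 or more LTRs), and in 12 it lay in a strong fixed locus, in 11 in a weak one. Added together, the loci of both LTRs reached a median of 535 RPM. A probe site lay within 1000 bp of 93.7% of these members, beside 22.8% of members with a single LTR, the probes having been designed on elements with both LTRs.

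The flanks of members were less unique than those of strong fixed loci. Only reads that map to 1 place were counted, so the share of 50-base words in the 500 bp beside an LTR that occur once in mm9 was measured on each side. For members with 1 of 2 LTRs the flank facing the other LTR, which is the inside of the element, had a median of 7.98% unique words and the outer flank 100%, and the inner flank was the less unique at 128 of 143. For members with a single LTR the less unique flank had a median of 62.7% and the other 95.5%. For single-LTR strong fixed loci the values were 99.3% and 100%. Both flanks were over 95% unique at 51 members (10.5%) and at 720 strong fixed loci (57.9%).

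Level rose with uniqueness over all 1467 single-LTR loci that were intermediate, strong or weak. The median B6 level was 65.5 RPM for 47 loci with under 20% unique flanks, 152 RPM for 37 loci at 20 to 40%, and 276 RPM for 75 loci at 40 to 60%. It was 373 RPM for 195 loci at 60 to 80%, 424 RPM for 307 loci at 80 to 95% and 478 RPM for 806 loci above that. Members made up 74.7% of the loci at 40 to 60% and 8.06% of those above 95%. Spearman's rho was 0.49 over the 1467 loci and 0.55 over the 312 members, both descriptions across loci measured in the same libraries. Without the founder library that stands apart, the 6 medians ran from 65.6 to 486 RPM in the same order.

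**Figure D2:**
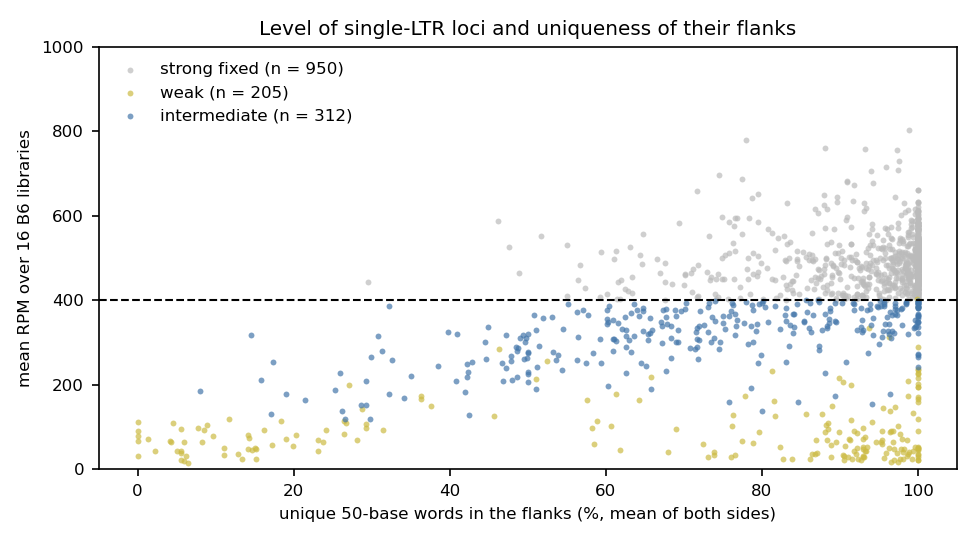
Mean B6 level (y axis, RPM) of single-LTR loci against the mean share of unique 50-base words in both flanks (x axis, %), with each point a locus and the dashed line at 400 RPM. Intermediate loci fill the middle of the rising band, and weak loci sit both at its low end and under the band at high uniqueness.

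The loci at the edges of the rule were close to their neighbours outside it. The lowest means were 119.7 RPM at chr14:4949742-4951780 (in an intron of Gm3264, overlapping a UTR of Gm3269), 119.8 RPM at chr14:6100651-6103047 (overlapping a UTR of Gm3453) and 119.98 RPM at chr12:20383637-20385964. The highest were 399.9 RPM at chr18:32200890-32203187 (4.28 kb from Myo7b), 399.7 RPM at chr4:55413882-55417263 (8.77 kb from Rad23b) and 399.4 RPM at chr13:20216310-20219262 (an intron of Elmo1). Just above the upper limit were chr7:4368321-4372008 and chr17:92491447-92495441, at 400.1 and 400.2 RPM. The loci chr4:40540588-40542246 and chr17:88257802-88261025 missed because their lowest B6 library had 99.8 and 99.1 RPM, while chr19:33523706-33530634 passed at 100.9 RPM. The loci chr4:77224714-77227555 and chr18:34341741-34344666 had 9.23 and 8.87 RPM in their lowest main library, and chr1:173792126-173795547 passed with 11.5 RPM.

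Most members lay between genes. By the midpoint of the locus, 401 of 487 were intergenic, 73 lay in introns of protein-coding genes, 9 in introns of other genes, 2 in UTRs, 1 in another exon of a coding gene and 1 in an exon of another gene. Of 75 members with a single orientation inside a gene, 55 (73.3%) ran opposite to the gene, beside 203 of 247 (82.2%) strong fixed loci and 31 of 46 (67.4%) weak loci. The reads of a locus reach past the LTR, and 27 members overlapped an exon of a coding gene. The 8 of these with the highest B6 level overlapped Efr3a, Spink6, Taar5, Rsl1d1, Adamts12, Xpnpep3, Olfr1333 and Nlrp1a. Efr3a helps to place a lipid kinase at the plasma membrane, Taar5 is a trace amine receptor of the olfactory epithelium, Adamts12 is a metalloproteinase and Nlrp1a is an inflammasome sensor. Their levels differed little between strains: the Taar5 locus, chr10:23691189-23694566, ran from 348 to 414 RPM in B6, 361 to 415 in F1, 366 to 437 in F2 and 360 to 396 in Chr2-cl libraries. The Nlrp1a locus, chr11:70903070-70906544, was the most spread of them, at 309 to 445 RPM in B6 and 200 to 371 RPM in F2. Without the founder library that stands apart, its highest B6 level was 388 RPM. Chromosome 3 held the most members, 47, beside 88 strong fixed loci, and chromosome 8 the fewest, 10 beside 55.

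The members as a whole took up the same share of reads in every strain. The share averaged 14.6% ± 0.271 (SD, n = 16) in B6, 14.6% ± 0.126 (n = 13) in F1, 14.6% ± 0.167 (n = 39) in F2 and 14.5% ± 0.163 (n = 8) in Chr2-cl libraries, and the 4 ranges overlapped. The median over members of the ratio to the B6 mean was 1.01 in F1, 1.02 in F2 and 1.0001 in Chr2-cl libraries. The ratio lay within 20% of 1 at 465 members in F1, 445 in F2 and 456 in Chr2-cl. B6 is where level was used to choose members, so these ratios carry no test.

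Single members also varied little between animals. The median coefficient of variation was 6.31% in F1, 6.04% in F2 and 4.57% in Chr2-cl, where counting error alone would give 6.53%, 6.85% and 6.35%. In B6 it was 10.2% against 6.37%, and 6.07% without the founder library that stands apart. In that founder library the level followed the flanks: the median member with flanks over 80% unique (142 members) stood at 0.637 of its usual level and the median member under 60% (216 members) at 1.09, whereas the other main libraries ran from 0.965 to 1.04 and from 0.957 to 1.06. The steadiest members outside B6 had as nearest coding genes Efr3a (chr15:65683815-65686624), Ttc6 (chr12:58847398-58850107), Klf6 (chr13:5628854-5632297, 228 kb away) and Slc10a7 (chr8:81241803-81244443). Their SD was 0.05 to 0.06 on the log2(RPM + 1) scale over 60 libraries. At the Efr3a locus the 39 F2 libraries ran from 401 to 449 RPM, with a median of 420.

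Repeat libraries and other organs of the same mouse gave the same levels. Between repeat libraries of the same mouse and tissue (5 pairs, 4 of tails and 1 of testis), the SD over members of the log2 ratio was 0.11 to 0.15, where counting error gives 0.14 to 0.15, and at most 3 members differed by over 1.5-fold. Between the tail of mating 1 KO replicate 2 and its testis, brain, blood or kidney the SD was 0.11 to 0.12 and no member differed by over 1.5-fold. Between littermates of the mating 1 KO/WT group (28 pairs) the SD was 0.13 to 0.32, and 1 to 9 members differed by over 1.5-fold.

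The name fixed was in doubt for some members. The rule asked for only 10 RPM outside B6, and at 25 members the lowest of the 60 non-B6 libraries had under 50% of the B6 mean, at 11 of them under 20%. At 462 members it had 50% or more, and at 354 members 80% or more. The label of fixed in all strains was in doubt at these 25 loci, of which 14 kept 20 to 50%. Whether the insertion was absent from the low libraries was not tested, since reads that map to 1 place were all that was counted. The 50% limit misses intermediate levels. At 1 of the 25, chr4:144439298-144446729, KO/WT mice of F1 and F2 had 267 to 317 RPM, where the B6 mean was 389 RPM. Whether the other 462 members were fixed was not tested by this limit.

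**Figure D3:**
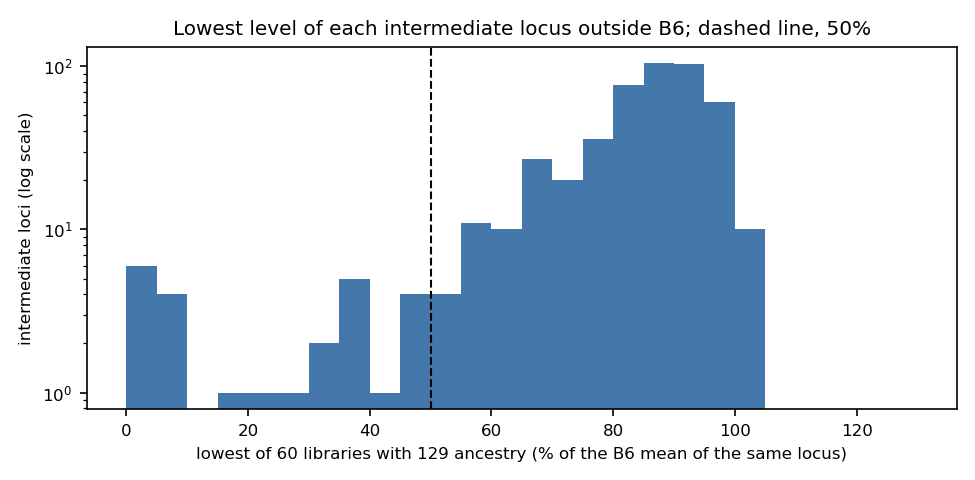
Number of intermediate loci (y axis, log scale) by the level of their lowest non-B6 library as a percentage of the B6 mean (x axis, bins of 5%). Most loci lie above 80% (354 of 487), and 25 lie left of the dashed line at 50%.

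The widest spread was at chr17:87610193-87613300, a single LTR with fully unique flanks 40.7 kb from Mcfd2, whose SD was 1.86 on the log2(RPM + 1) scale. Its stretch printed above is identical to a probe. In B6 it ran from 358 to 445 RPM, and the 3 F1 mice labelled WT had 423, 452 and 424 RPM. The F1 KO mice had 25.5, 17.5, 336 and 296 RPM, and mating 2 KO mice had 17.1, 27.1, 14.6 and 26.7 RPM. The WT littermates in mating 2 were as low, at 21.3, 23.1, 17.9 and 22.9 RPM. In mating 3 the KO mice ran from 30.6 to 361 RPM and the WT mice from 16.9 to 324 RPM. Low and high levels thus occurred in KO mice and in mice labelled WT. Outside B6 no library lay between 30.9 and 277 RPM, and 23 of 60 libraries (4 F1, 19 F2, no Chr2-cl) lay under 20% of the B6 mean. A further variable member, chr17:89884294-89888514, lay 2.27 Mb away on the same chromosome and also had 23 libraries under 20% of its B6 mean, and these were the same 23 libraries.

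A further 4 members had an SD of 1.47 to 1.75. They were chr1:173792126-173795547 in an intron of Cd84 (a leukocyte adhesion receptor), chr14:19553070-19556812 in an intron of Ube2e2 (a ubiquitin-conjugating enzyme), chr7:143430269-143433544 (522 kb from Mki67) and chr12:118620430-118625321 (104 kb from Ptprn2). The Cd84 locus was under 20% of the B6 mean in 5 of 8 Chr2-cl libraries, 3 of 13 F1 and 16 of 39 F2 libraries. The other 3 were under it in no Chr2-cl library. Where such a locus held 1 of 2 LTRs, the locus of the other LTR moved with it: over the 60 non-B6 libraries, which share parents, Pearson's r of log2(RPM + 1) was 0.96 at Cd84, 0.98 at the chromosome 7 locus and 0.98 at chr17:89884294-89888514. In these 3 cases the other LTR lay in a locus that was not in every main library, so the rule took 1 end of the element and not the other.

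Whether loss of a cluster changed the reads at members was compared between KO mice and littermates of the same mating. In mating 1 (5 KO, 8 KO/WT) the share of reads in members was 14.6% ± 0.151 in KO and 14.6% ± 0.0433 in KO/WT mice (exact permutation p = 0.553, adjusted 0.762). In mating 2 (4 KO, 4 WT) the KO mice had 14.57, 14.97, 14.40 and 14.72% and the WT mice 14.14, 14.85, 14.55 and 14.67% (exact p = 0.571, adjusted 0.762). In mating 3 (4 KO, 4 WT) the means were 14.8% ± 0.104 and 14.7% ± 0.0985 (exact p = 0.457, adjusted 0.762). In the Chr2-cl mating (5 KO against 2 WT and 1 KO/WT) they were 14.5% ± 0.191 and 14.5% ± 0.139 (exact p = 0.964, adjusted 0.964). Tissue was not balanced in this mating: the KO libraries mixed ear and tail DNA, and the littermate libraries were all of ear. The tests were two-sided exact permutation tests adjusted over 4 matings, and KO and littermate ranges overlapped in each. Sex was not part of these tests. In each mating the mice with over 0.14% of reads on chromosome Y had the higher shares. These mice had 14.63 to 14.88% against 14.505 to 14.62% in mating 1, and 14.67 to 14.97% against 14.14 to 14.57% in mating 2. They had 14.72 to 14.88% against 14.55 to 14.70% in mating 3, and 14.52 to 14.74% against 14.34 to 14.48% in the Chr2-cl mating. A part of sex in the shares was not tested. The smallest p that these exact tests could give was 0.000777 in mating 1, 0.0286 in matings 2 and 3 and 0.0179 in the Chr2-cl mating. Adjusted over the 4 matings, a difference in a single mating could reach 0.00311 in mating 1 by these exact tests, but only 0.114 in mating 2 or 3 and 0.0714 in the Chr2-cl mating.

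**Figure D4:**
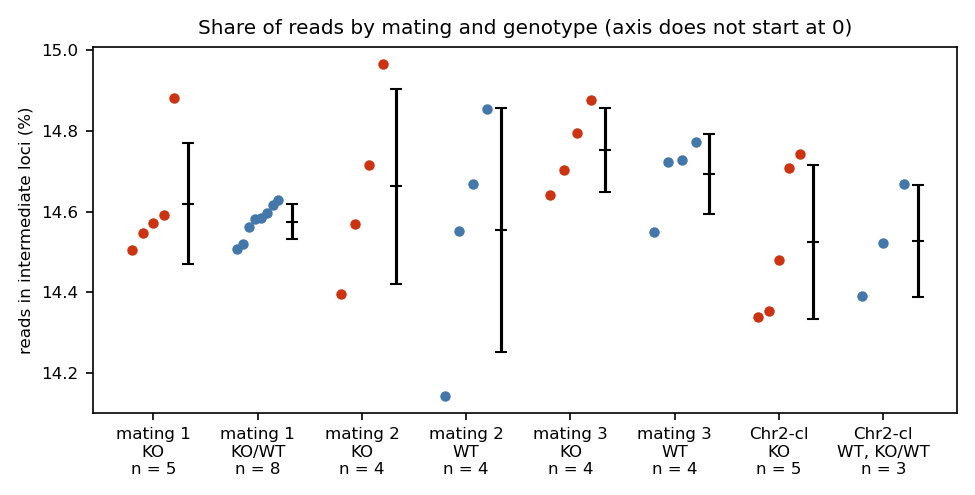
Reads in intermediate loci as a percentage of all ETn-paired reads (y axis, which does not start at 0), with each point a mouse, KO in red and littermates in blue, and black bars the mean and SD. KO and littermate points overlap in all 4 matings.

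Locus by locus, 1 of 487 members was called in each Chr4-cl mating with edgeR at an adjusted p under 0.05. The background was 0.678% of 2655 loci tested in mating 1, 0.537% of 2609 in mating 2 and 0.468% of 2562 in mating 3, beside 1 member (0.205%) in each. In the Chr2-cl mating 0 members were called (background 0.113% of 2665 loci), also with DESeq2, and 10 members (2.05%) had an unadjusted p under 0.05, beside 2.29% of all loci tested.

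The member called in matings 1 and 2 was the same, chr4:144439298-144446729, a locus with 2 or more LTRs 36.0 kb from Dhrs3, a retinaldehyde reductase gene. It lies on the chromosome of the deleted cluster, 1.62 Mb from Gm13051, a gene of that cluster. The KO mice of mating 2 had 387, 404, 354 and 371 RPM, and their WT littermates 33.7, 46.2, 34.5 and 52.0 RPM. The groups did not overlap, and the log2 fold change was 3.18 ± 0.16 (SE, edgeR adjusted p = 2.93e-05). In mating 1 the KO mice had 389, 391, 349, 363 and 374 RPM, and the 8 KO/WT mice had 267 RPM at the lowest, a median of 281 and 317 at the highest. These groups did not overlap either, with a log2 fold change of 0.38 ± 0.04 (edgeR adjusted p = 0.000299).

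In mating 3 the KO mice had 353, 306, 360 and 400 RPM at that locus, and WT mice 26.3, 32.5, 267 and 22.4 RPM. The WT mouse at 267 RPM, replicate 3, stood at the level of KO/WT mice. With it the log2 fold change was 2.03 ± 0.80 and not called (edgeR adjusted p = 0.999), and without it 3.71 (edgeR adjusted p = 6.53e-05). Over all Chr4-cl F1 and F2 mice, the 27 KO had 306 to 404 RPM, the 14 KO/WT had 267 to 317 RPM and the 11 labelled WT had 22.4 to 64.9 RPM but for that mouse. The 3 F1 mice labelled WT had 36.6, 33.01 and 64.9 RPM. B6 libraries of all genotypes had 347 to 412 RPM but for the founder library that stands apart, at 518 RPM. Both B6 WT mice, at 347 and 365 RPM, lay at the level of B6 KO mice. As the deletion was made on a B6 chromosome and the crosses brought in 129X1/SvJ chromosomes, the deletion and the chromosome around it cannot be told apart in these matings.

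The member called in mating 3 was chr11:7866698-7869685, which holds 1 of 2 LTRs and lies 462 kb from Tns3. The KO mice had 350, 311, 363 and 382 RPM and the WT mice 122, 106, 112 and 126 RPM, without overlap (log2 fold change 1.60 ± 0.09, edgeR adjusted p = 6.90e-05). In B6 the locus had 317 to 409 RPM but for the founder library that stands apart, at 723 RPM. Elsewhere the same 2 levels occurred in both genotypes. In mating 2 the KO mice had 311, 342, 105 and 354 RPM and the WT mice 99.4, 348, 121 and 353 RPM (edgeR adjusted p = 0.99996), and all 13 F1 libraries had 104 to 134 RPM. The locus of its other LTR, a strong fixed locus of 443 RPM in B6, moved with it over the 60 non-B6 libraries (r = 0.98, a description). The KO effect in mating 2 minus that in mating 3 was called at 0 of 487 members with edgeR, beside a background of 0.113% of 2666 loci. An unadjusted p under 0.05 was found at 5 members (1.03%) and at 2.51% of all loci tested.

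**Figure D5:**
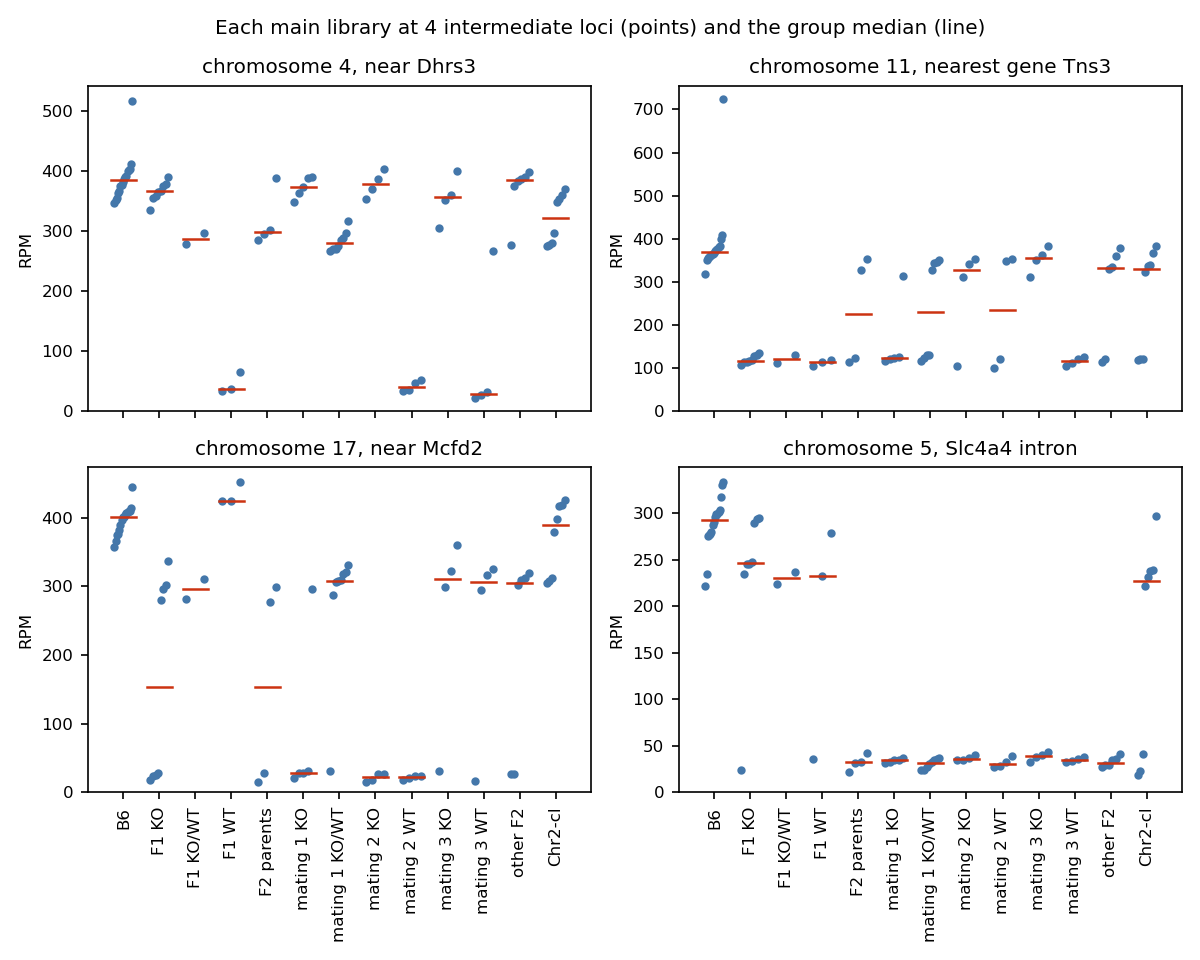
RPM (y axis) of each main library at 4 intermediate loci, by strain, mating and genotype, with red lines at group medians. The chromosome 4 locus is low in mice labelled WT in F1 and matings 2 and 3 except 1 mouse at 267 RPM, the chromosome 11 locus has 99.4 to 134 or 311 to 383 RPM outside B6 and 1 B6 library at 723 RPM, the chromosome 17 locus has no library between 30.9 and 277 RPM, and the chromosome 5 locus is under 44 RPM in all F2 libraries.

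The largest number of called members came from F2 against F1 tails, which compared 30 offspring of matings 1 to 3 with 4 F1 offspring (1 KO, 3 labelled WT) of a single pair. Here 37 of 487 members (7.60%) were called, beside a background of 7.97% of 2774 loci, with 21 higher in F2 (background 4.25%) and 16 lower (background 3.71%). The share of members was near the background. The split by direction changed when single F1 mice were left out: without KO replicate 3, WT replicate 1 or WT replicate 2 of F1, the members higher in F2 numbered 12, 11 and 13 of 25 called, and without WT replicate 3 they numbered 16 of 29. With library totals in place of TMM, 30 of 45 called members were higher. The 21 higher members differed by 0.13 to 0.37 on the log2 scale, and the 16 lower ones by 0.15 to 2.65, of which 5 exceeded 0.5. The F1 tails and most of the F2 tails also come from different series of library numbers, and whether these were sequenced apart is not stated. Generation, parents, litter and library series cannot be told apart in this comparison. The 30 F2 tails were littermates within matings and included both parents of mating 3 (mating 1 KO/WT replicate 8 and mating 2 KO/WT replicate 1), and the fit counted them all as independent mice. Without these parents 35 members were called, 19 of them higher in F2, and 34 of the 35 were among the 37.

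The strongest of the lower members was chr5:89631820-89633197, in an intron of Slc4a4, a sodium bicarbonate cotransporter. The 4 F1 tails had 295, 278, 232 and 36.0 RPM, and the 30 F2 tails 23.8 to 43.7 RPM (log2 fold change -2.65 ± 0.18, edgeR adjusted p = 5.20e-14). The low F1 mouse overlapped the F2 range, and all 39 F2 libraries lay under 20% of the B6 mean. At chr19:21992916-21995154, 60.1 kb from Tmem2, F2 tails had 56.6 to 98.3 RPM and F1 tails 87.1 to 366 RPM (log2 fold change -1.91 ± 0.15, edgeR adjusted p = 1.39e-12). The next were chr9:38216525-38219669, near the olfactory receptor gene Olfr147 (145 ± 12.7 against 261 ± 85.0 RPM), and chr14:51879287-51880686, near Ear11 (154 ± 24.3 against 321 ± 94.6 RPM), with log2 fold changes of -0.86 and -1.07.

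The leading members higher in F2 moved by far less. At chr3:78360761-78364919 F2 tails averaged 297 ± 13.1 RPM (n = 30) and F1 tails 234 ± 26.3 RPM (n = 4), a log2 fold change of 0.33 ± 0.05 (edgeR adjusted p = 1.92e-06). The neighbouring locus, chr3:78355118-78359024, also holds 1 of 2 LTRs and averaged 208 ± 12.7 against 172 ± 13.0 RPM. The others were chr6:69575932-69578717, 8.51 kb from Gm11143 (340 ± 23.96 against 264 ± 54.1 RPM), and chr5:60346347-60348904 (299 ± 18.7 against 251 ± 13.6 RPM). The F2 and F1 ranges did not overlap at chr3:78360761-78364919 and overlapped at the other 3 loci.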

How the data were processed

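Genomic DNA libraries enriched with probes for ETn LTRs were analysed from 74 mice and 2 ES lines (76 main libraries, and 11 further libraries of the same mice). The authors mapped both ends one by one to mm9 with Bowtie, used SAMtools to take out duplicates, kept reads with a unique position and a mate in an ETn repeat, and merged them with bedtools, as the study's methods state. The version of each tool was not given in the sources used here. What was deposited is a raw read count for each region, with 525419 to 1046650 reads per library. Positions that occur more than once in mm9 give no unique reads, and what duplicate removal did to the levels was not tested. Intervals were not derived from the reads, which carry no molecular identifiers.

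Regions of 10 RPM were joined within 1000 bp and summed into loci. The members and lists were chosen with earlier results of these data known. Reads per locus were tested over all loci with 10 RPM in at least as many libraries as the smaller group, with edgeR 4.0.16 (quasi-likelihood, TMM) and Benjamini-Hochberg adjustment at 0.05; DESeq2 1.42.0 was an alternative, and the fit was tested on simulated data. Shares were compared by exact permutation over mice. Littermates share parents, so p-values measure the spread between mice of a mating. Probes were matched with blastn 2.17.0, genes came from the GENCODE annotation of the same build, and uniqueness was counted in exact 50-base words. Named loci were the 3 members lowest and highest in B6, the 6 most and 4 least variable outside B6, members called (up to 6 for a mating, 4 in each direction for F2 against F1), and up to 8 that overlap a coding exon; nearest loci outside each limit are named too. The alternatives changed the joining distance, the entry level, the upper limit, the denominator, the normalization, the filter, the tool and the animals.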

Additional observations from a re-analysis of the deposited data

Results flagged for a closer look

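In the mating 1 KO group the share of reads in members was 14.9% in replicate 2, against 14.6% in the nearest of the other 4 mice, a gap larger than Dixon's limit. Replicate 2 had 0.156% of reads on chromosome Y, and the other 4 mice had at most 0.0117%. In each mating the mice with over 0.14% of such reads had the higher shares. At chr11:7866698-7869685 mating 1 KO replicate 2 had 312 RPM where the next of its group had 126 RPM. In mating 2 KO the mouse of replicate 3, whose sex label went against its reads, had 105 RPM where the next had 311 RPM. Both levels occurred in other mice. Littermates of the other genotype ran from 117 to 351 RPM in mating 1 and from 99.4 to 353 RPM in mating 2. F1 libraries had 104 to 134 RPM. At chr4:144439298-144446729 the WT mouse of mating 3 replicate 3 had 267 RPM, where the next of its group had 32.5 RPM. Chance gives such a gap in about 1 of 20 groups whose values follow 1 normal distribution, and 21 groups were looked at. The chromosome 11 and chromosome 4 loci had separate low and high levels between animals, so this rate does not hold for them. What set these values apart was not tested.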

How the results depend on the processing

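The number of members was 218 with the upper B6 limit at 300 RPM and 1104 with it at 500 RPM. It was 517 without the founder library that stands apart and mating 2 WT replicate 1, and 461 of the 487 were among them. None of the 4 KO comparisons of the share of reads passed the adjusted threshold under any alternative run, which only mating 1 could have done alone. The mating 3 difference rose from 0.0606 to 0.158 percentage points with fixed loci as the denominator, with KO and WT mice fully separated (exact permutation p = 0.0286, the smallest possible, adjusted 0.114). In percentage points, the Chr2-cl difference changed sign to 0.00637 with fixed loci as the denominator, to 0.00142 with overlapping regions alone joined and to 0.00859 with the limit at 300 RPM, and the mating 3 difference to -0.0257 with regions within 5000 bp joined. Leaving out each mouse in turn gave -0.0207 to 0.0737 in mating 1, -0.0291 to 0.208 in mating 2, 0.0127 to 0.0985 in mating 3 and -0.0714 to 0.0680 in the Chr2-cl mating.

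Called members numbered 1 to 3 in mating 1 with each mouse left out; the 3 came without KO replicate 2, adding chr17:87610193-87613300 and chr17:89884294-89888514. They numbered 1 to 2 in mating 2, and 2 with DESeq2; the added locus was chr4:143377585-143379065 both with DESeq2 and without WT replicate 3. They numbered 1 to 2 in mating 3 (2 without WT replicate 3) and 0 in the Chr2-cl mating. For F2 against F1 tails they numbered 25 to 36 with a mouse left out, 45 (30 higher) with library totals in place of TMM, and 37 (20 higher) without mating 2 KO replicate 3. That setting and those without mating 2 WT replicate 1 or the parents of mating 3 were chosen after seeing the data. No paired analysis was possible because replicate numbers were given in accession order and pair no animals. Counting error alone would give a median spread of 6.35% to 6.85% per member and library outside B6. The observed medians lay under it, at 4.57% to 6.31%, so the counting figure is not a measured limit on the differences that could be seen.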
